A study of Mus musculus with 8 samples.

Results

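RNA levels of mouse pre-iPSCs carrying a Sin3a transgene were compared with those of the same cells carrying empty vectors (EV), over the probes bright enough for the arrays of both groups to be read. Of the 45281 probes on the array, 2670 (5.90%) had a mean log2 intensity above 9, an intensity of 512, over all 8 arrays of the study, after values under 16 were raised to 16 (the floor). These 2670 bright probes were the probes compared. The array annotation gave 1 gene symbol for 2253 of them, covering 1883 genes, several symbols for 1 and none for 416. No bright probe was at the floor on any array. The rule used the mean over every group, so it did not select on the difference between Sin3a and EV alone.

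Sin3a holds together a large co-repressor complex. It binds no specific DNA sequence itself, is brought to promoters by transcription factors, and holds the histone deacetylases Hdac1 and Hdac2, which remove acetyl groups from histone tails. The complex is needed for the growth of embryonic cells, and its recruitment usually lowers transcription of the bound gene, though loss of Sin3a lowers some genes as well. Pre-iPSCs are cells that stalled partway to pluripotency during reprogramming.

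The cells were female, of the 129/MF1 strain, derived from neural stem cells, and carried a reporter that joins GFP and puromycin resistance to Oct4. They grew on gelatin in serum with LIF, the cytokine that maintains mouse pluripotent cells. PiggyBac vectors with the ubiquitous CAG promoter were integrated stably and selected for with blasticidin, hygromycin or the pair of drugs, and RNA is from day 0, before reprogramming medium was given. There were 2 arrays for each of 4 groups. EV cells held empty vectors, Sin3a cells the Sin3a transgene with an empty vector, Nanog cells the Nanog transgene with an empty vector, and Nanog+Sin3a cells both transgenes. The labels number the arrays as replicates and do not tell whether separate cultures were used, so every p-value below reflects array-to-array spread alone, which may be technical. In such bulk samples, fewer cells of a type and less RNA per cell cannot be told apart.

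At dim probes 1 array, the second of the Sin3a group, did not resemble the other 7. For probes with a mean log2 intensity from 6 to 7, the 2 Sin3a arrays differed by a median of 2.50 on the log2 scale, against 0.118 between the EV arrays. At 8 to 9 the Sin3a arrays still differed by a median of 0.349, and 14.5% of probes differed by more than 1. Among the bright probes the medians were 0.0941 for Sin3a, 0.108 for EV, 0.140 for Nanog and 0.118 for Nanog+Sin3a, and no bright probe differed by more than 1 between the Sin3a arrays. At 9 to 10, where 1255 of the bright probes lie, the Sin3a arrays were less close than the EV arrays. The medians there were 0.147 for Sin3a, 0.112 for EV, 0.159 for Nanog and 0.129 for Nanog+Sin3a. The Sin3a, Acta2 and Cbr3 probes called below lie in that range. Across the bright probes the first EV array correlated at r = 0.989 with the second EV array and at 0.992 with the first Sin3a array. The probes nearest the limit were Lcmt1 and Rap2c inside (differences of 0.21 and 0.22 between Sin3a and EV, log2) and Cd2bp2 and Tmem41a outside (0.14 and -0.23).

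**Figure D1:**
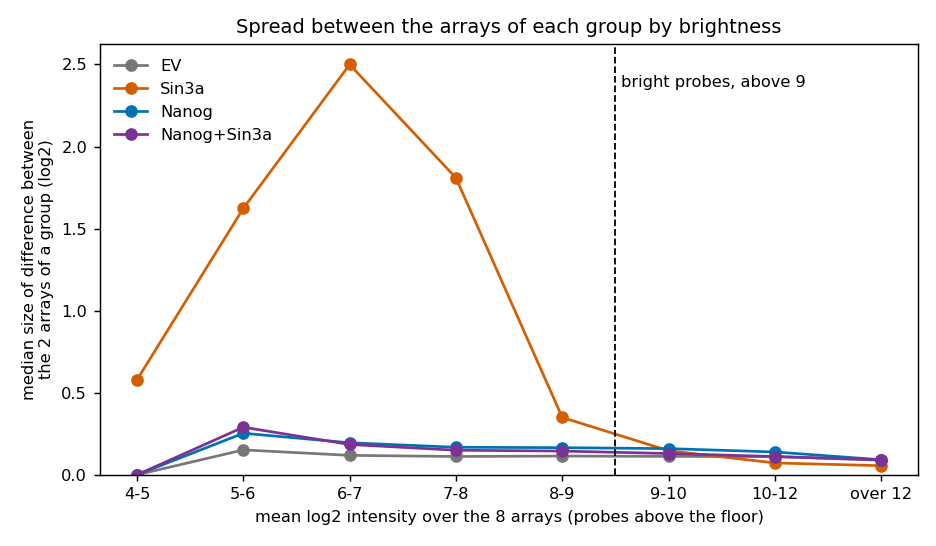
Median size of the log2 difference between the 2 arrays of each group (vertical axis) by mean log2 intensity over the 8 arrays (horizontal axis, bins), for probes above the floor on at least 1 array. The Sin3a pair reaches 2.50 at 6 to 7 and falls to 0.147 at 9 to 10 and 0.0721 at 10 to 12. The dashed line marks the limit of 9.

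The cells were checked against their label. Pou5f1, which encodes Oct4, was bright on every array, with its brighter probe at 1046.4 and 1167.3 in EV and 1106.5 and 867.1 with Sin3a. Nanog was below 0 on all 4 of these arrays, and between 16 and 20 of the 38 pluripotency genes on the array were above the floor. The later genes Dppa3, Utf1, Nr0b1 and Lin28a, named after their values were seen, were below the floor on all 4, while Sox2 reached 42.6 and Zfp42 28.9 at most, and L1td1 was at 376.6 and Esrrb at 84.7 on the second Sin3a array, where dim probes are noisy. The neural stem cell gene Fabp7 was also below the floor on all of them. Nes, an intermediate filament of neural progenitors, was at 97.8 and 105.6 in EV and 103.4 and 0.6 with Sin3a. Between 9 and 15 of the 28 neural stem cell and glial genes were above the floor. Among them, Egfr read 664.7 and 616.5 in EV and 695.7 and 610.6 with Sin3a. Sox11 read 397.7 and 372.2 against 375.8 and 95.4, and Sox21 80.4 and 68.4 against 268.7 and 428.2. All of these were chosen after their values were seen. Of the 38 pluripotency genes, 3 were above 512 on each of these arrays, as were 3 of the 28 neural stem cell and glial genes.

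Sin3a against EV changed few bright genes. With limma over all 2670 probes, 4 rose and 0 fell at an adjusted p under 0.05, which is 0.15% of the probes. They were Sin3a itself, Acta2 (smooth muscle actin), Ckb (the creatine kinase of brain, which buffers ATP) and Cbr3 (a carbonyl reductase that detoxifies quinones and other carbonyls). At an unadjusted p under 0.05 there were 95 higher (3.56%) and 111 lower probes (4.16%), 7.72% together. The count of calls was 14 (10 higher, 4 lower) when either Nanog array was left out, 10 (3 higher, 7 lower) when the first Sin3a array was, and 2 when the second was. Leaving out either Nanog+Sin3a array gave 2, and leaving out the second EV array gave 1. Fitted on the Sin3a and EV arrays alone it was 35 (18 higher, 17 lower), and with estimated array weights 12 (9 higher, 3 lower). The 35 shared 3 genes with the main fit and did not include Cbr3. They included an Actb probe whose EV arrays read 970.9 and 319.6, with a standard error of 0.14 there and 0.30 in the main fit. That count is therefore not read as a larger response. The weights ran from 0.69 for Nanog to 1.27 for Sin3a. With 2 arrays a group, both arrays of a group must get the same weight, so the weights could not mark down the second Sin3a array. The differences were centred on -0.0013 with an SD over probes of 0.16 (log2). Of all bright probes, 11 were higher and 7 lower by more than 0.5, and 3 were higher and 0 lower by more than 1.

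The brightness of the 4 genes limits how they are read. A mean above 9 in every one of the 4 groups held for 2413 of the bright probes (90.4%), and of the called genes only for Ckb. Means above 9 in both EV and Sin3a held for 2527 of the bright probes. Sin3a passed through the groups that carry its transgene, and a probe that passes in this way has to differ, so its difference is a check of the labels and not a finding. Acta2 had a mean under 512 in EV and with both transgenes and passed through the Sin3a and Nanog groups, so its p-values are not independent of how the probes were chosen. Cbr3 was under 512 in both EV and Sin3a and passed through the 2 Nanog groups. Its intensities in the Sin3a group thus lie where the second Sin3a array was less precise.

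The Sin3a probe read 329.3 and 261.8 on the EV arrays and 1182.1 and 1141.6 on the Sin3a arrays. The groups did not overlap, and the difference was 3.96-fold (log2 1.98, SE 0.15, n = 2 against 2). The Nanog arrays read 344.4 and 472.5 and the Nanog+Sin3a arrays 1484.7 and 1483.3, so all 4 arrays with the transgene lay above all 4 without it. The values cannot separate transgene from endogenous RNA.

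Acta2 encodes the alpha actin of smooth muscle, which is also made by contractile fibroblasts. It read 473.5 and 408.2 on the EV arrays and 850.8 and 940.3 on the Sin3a arrays. Both Sin3a arrays lay above both EV arrays, by 2.03-fold (log2 1.02, SE 0.15, limma adjusted p = 0.000977). Without the second EV array the adjusted p was 0.188 (log2 0.92), so the call depends on that array. A dimmer Acta2 probe, not among the members, read 76.2 and 71.0 in EV, 148.2 on the first Sin3a array and 21.3 on the second. Another read 34.6 and 39.0 in EV and 43.6 on the first Sin3a array, and a further one 41.6 and 31.3 in EV and 64.9. Both of these were below the floor on the second Sin3a array. The remaining Acta2 probes were below the floor on every array.

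The smooth muscle and pericyte list held 13 genes on the array, and no other than Acta2 had a bright probe. At the brightest probe of each, between 4 and 6 of the 13 were above the floor on any 1 array. Tagln, Cnn1, Des and Lmod1, made in contractile smooth muscle, were below the floor on all 8 arrays. Of the others, Myocd was at 36.5 and 25.5 in EV and 31.8 on the first Sin3a array, Actg2 at 19.7 and 28.1 in EV, and Cspg4 at 22.7 and 28.7 in EV and 18.0 on the first Sin3a array. The second Sin3a array alone had Pdgfrb (211.0), Synpo2 (96.5), Myh11 (79.8) and Rgs5 (41.0) above the floor. Smtn, the next brightest of the list and chosen after its values were seen, read 69.6 and 64.8 in EV, 100.9 and 146.8 with Sin3a, 109.5 and 115.9 with Nanog, and 94.3 and 100.5 with both. The summed intensity of the list without Acta2 was 173.4 and 156.6 in EV, 165.4 on the first Sin3a array and 591.7 on the second, where dim probes are noisy. In the Nanog and Nanog+Sin3a groups it ran from 169.7 to 224.3.

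Ckb read 1671.8 and 1306.5 in EV and 2270.5 and 2275.6 with Sin3a. The Sin3a arrays were nearly equal and both above the EV arrays, by 1.54-fold (log2 0.62, SE 0.12, limma adjusted p = 0.0351). It did not pass without either Sin3a array (adjusted p = 0.159 and 0.429), the second EV array (0.999) or either Nanog+Sin3a array (0.0728 and 0.0733).

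Cbr3 read 276.7 and 284.5 in EV and 429.3 and 468.1 with Sin3a. These groups were apart by 1.60-fold (log2 0.68, SE 0.14, limma adjusted p = 0.0479). The call was lost without either EV array (adjusted p = 0.283 and 0.824), the second Sin3a array (0.393) or either Nanog+Sin3a array (0.121 and 0.118). After quantile normalization the difference was 0.42 (log2, adjusted p = 0.457). Fitted on the Sin3a and EV arrays alone, Cbr3 did not pass either (SE 0.23, limma adjusted p = 0.124). The second Cbr3 probe, not bright, read 83.7 and 84.3 in EV, 141.4 on the first Sin3a array and 28.7 on the second.

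**Figure D2:**
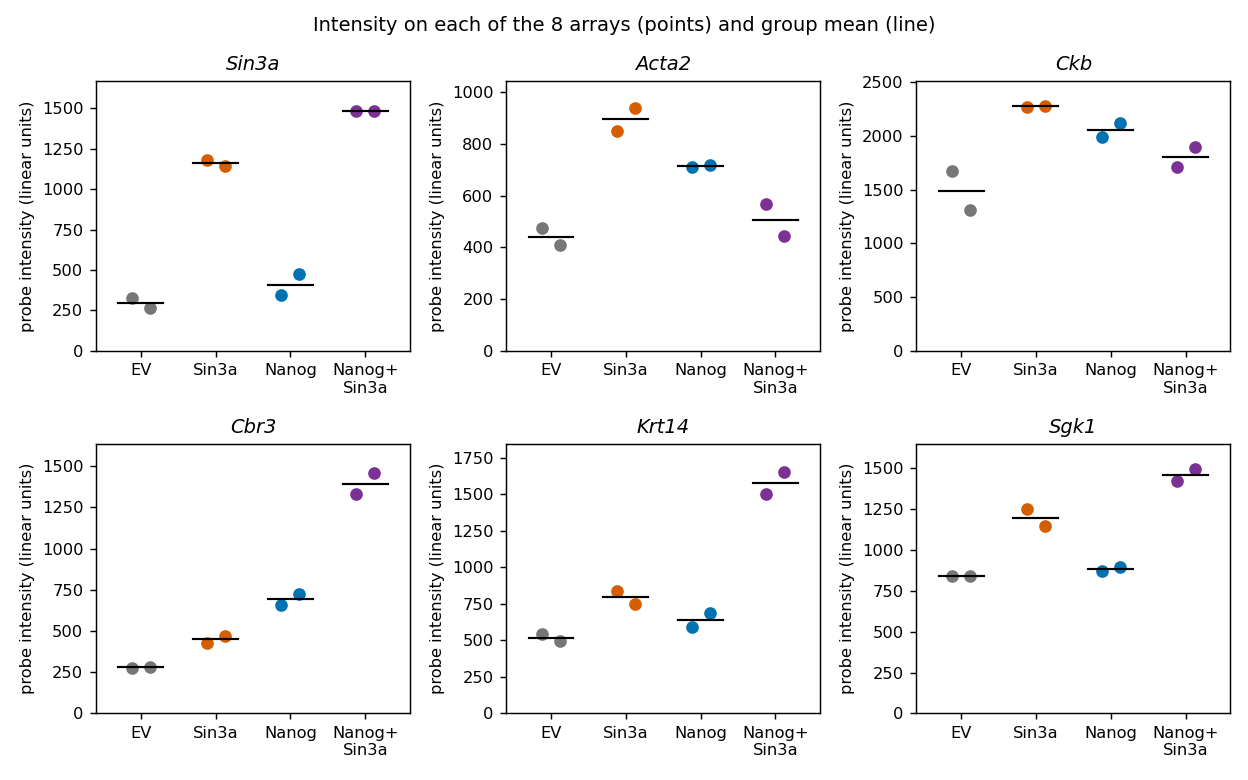
Probe intensity in linear units (vertical axis, from 0) of 6 genes on each of the 8 arrays by group, with points for arrays and a line for the mean of the 2 arrays. Both Sin3a arrays lie above both EV arrays in every panel, while Acta2 and Ckb are lower with both transgenes than with Nanog alone and Cbr3, Krt14 and Sgk1 are higher.

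The promoters of the called genes other than Sin3a are given because a co-repressor acts through the factors bound there. Each runs from 250 bases before the gene start to 50 after it, read 5′ to 3′ on the gene's strand from RefSeq's GRCm38.p6 table, with matches to the searched motifs in capitals. The Acta2 promoter is chr19:34255324-34255623 on the minus strand, that of Ckb chr12:111672289-111672588 on the minus strand and that of Cbr3 chr16:93682969-93683268 on the plus strand.
Acta2: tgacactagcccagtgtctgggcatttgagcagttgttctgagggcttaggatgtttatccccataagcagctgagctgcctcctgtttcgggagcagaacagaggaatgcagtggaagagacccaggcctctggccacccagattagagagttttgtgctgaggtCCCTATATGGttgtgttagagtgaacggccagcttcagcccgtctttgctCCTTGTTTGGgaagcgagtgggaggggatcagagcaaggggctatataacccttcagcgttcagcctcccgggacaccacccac
Ckb: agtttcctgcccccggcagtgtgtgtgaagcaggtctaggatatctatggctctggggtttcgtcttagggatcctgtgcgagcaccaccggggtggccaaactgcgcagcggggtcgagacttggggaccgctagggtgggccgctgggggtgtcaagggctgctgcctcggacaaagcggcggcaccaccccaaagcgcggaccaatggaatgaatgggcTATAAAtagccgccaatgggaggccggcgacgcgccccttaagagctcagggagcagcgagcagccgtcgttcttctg
Cbr3: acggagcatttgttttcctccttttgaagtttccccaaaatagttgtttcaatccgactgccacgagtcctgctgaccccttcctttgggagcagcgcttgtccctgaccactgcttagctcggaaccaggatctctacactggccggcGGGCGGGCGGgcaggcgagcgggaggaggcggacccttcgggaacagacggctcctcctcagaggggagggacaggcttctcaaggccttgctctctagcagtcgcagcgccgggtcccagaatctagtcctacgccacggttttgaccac
The motifs were searched on both strands. They were the CArG box of serum response factor, with 1 base off its A and T core allowed, the TATA box TATAAA, a GC box, an E-box and the core site of Nrf2. Acta2 held 2 CArG matches, which began 84 and 34 bases before the start, and such a match was in 9.98% of the 32841 promoters of the same length. Ckb held 1 TATAAA, 28 bases before the start, a motif in 13.6% of promoters. The GC box GGGCGG, bound by Sp factors, was found 2 times with overlap in Cbr3, at 101 and 97 bases before the start, and in 35.7% of promoters. The Nrf2 core TGACNNNGC, in 12.4% of promoters, had no match in these windows. Nor had the E-box CACGTG, in 7.15%. A match describes letters and does not show binding.

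Below these genes, differences were smaller or less even between arrays, and none of the genes in this and the next paragraph passed the test against EV. Krt14, a keratin of basal epithelium, read 541.6 and 495.3 in EV and 835.0 and 750.9 with Sin3a (log2 0.61, SE 0.13, limma adjusted p = 0.0523). Sgk1, a kinase that responds to serum and glucocorticoids, read 840.0 and 841.2 against 1249.7 and 1145.5 (log2 0.51, adjusted p = 0.0701). Axl, a receptor tyrosine kinase, read 993.1 and 881.2 against 1358.1 and 1344.2 (log2 0.53, adjusted p = 0.107). In all of them the arrays of the groups were apart. Specc1 (log2 0.49) and Gtf3c2, a subunit of a general factor for RNA polymerase III (0.46), were also apart. A probe of beta actin, Actb, was 1.02 higher, but its EV arrays read 970.9 and 319.6 and its standard error was 0.30 (adjusted p = 0.341), and the other 2 bright Actb probes differed by 0.30 and 0.22. Without the second EV array the first probe was at 0.22.

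On the lower side the smallest adjusted p was 0.107, at Fads1, a desaturase of polyunsaturated fatty acids. It read 1745.3 and 1683.0 in EV and 1175.8 and 1268.3 with Sin3a (log2 -0.49, SE 0.11). H3c13, a histone H3 gene, read 1274.2 and 1315.3 against 873.6 and 980.6 (log2 -0.48, adjusted p = 0.184). In both genes the 2 arrays of each group lay close together. Vps36, a sorting protein of the ESCRT machinery, was at -0.51, and its Sin3a arrays read 1055.5 and 788.8. The deubiquitinase Usp33 (-0.58), A430005L14Rik (-0.54, and -0.37 at its other bright probe), Krtdap (-0.52), the tubulin cofactor Tbcb (-0.48), the signalosome subunit Cops7a (-0.46) and thioredoxin, Txn1 (-0.44), were apart between groups too. Krtdap was under 512 on all EV and Sin3a arrays (434.3 and 499.7, 392.3 and 268.4) and was bright only through the Nanog and Nanog+Sin3a groups. Without the second Sin3a array A430005L14Rik was at -0.17, Tbcb at -0.20, Krtdap at -0.25, Vps36 at -0.30 and Usp33 at -0.38, and without the second EV array Txn1 was at -0.16. One probe of Psmb7, a proteasome subunit, was at -0.53, while its other 3 bright probes lay at 0.03, 0.03 and 0.06. Over the 318 genes with 2 or more bright probes, the median range of the differences among a gene's probes was 0.107, and the range passed 0.5 in 2 genes.

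**Figure D3:**
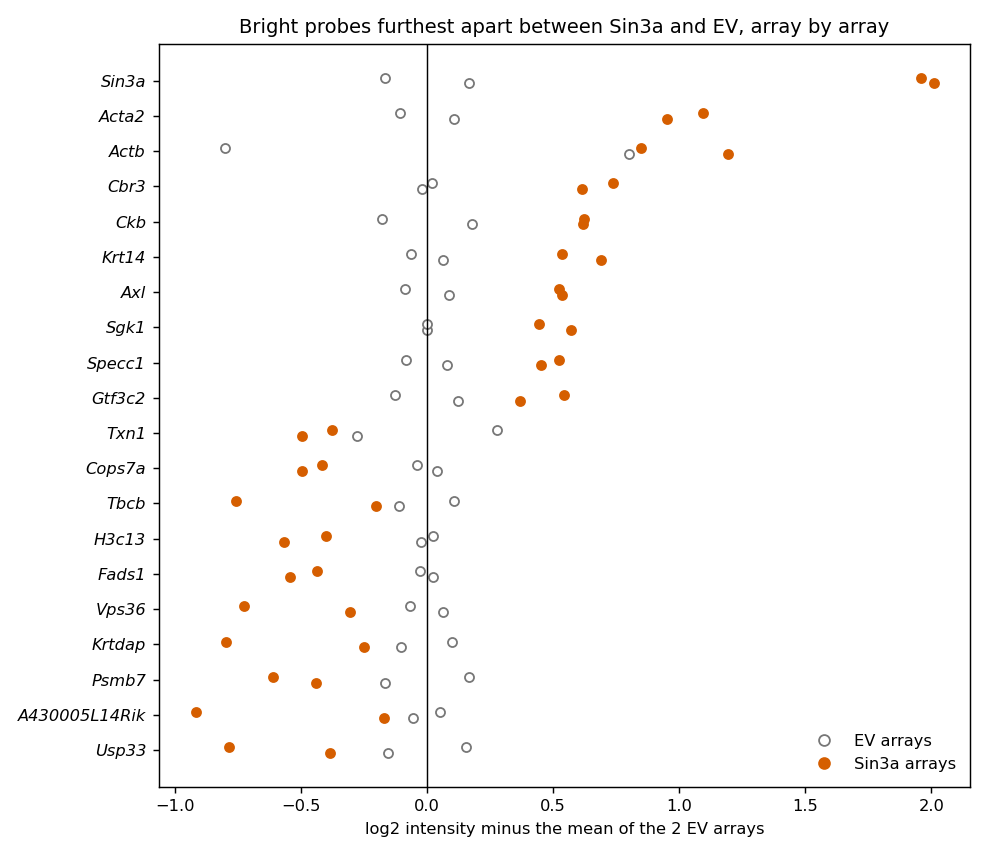
Log2 intensity on each EV array (open points) and Sin3a array (filled points) minus the mean of the 2 EV arrays (horizontal axis), for the 10 named genes furthest above and the 10 furthest below EV whose arrays did not overlap. Sin3a is near 2, Acta2 near 1, and the EV arrays of Actb are spread from -0.80 to 0.80.

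The arrays of Sin3a and EV did not overlap at 41.2% of all bright probes, 20.6% higher with Sin3a and 20.6% lower. With 2 arrays a group, many probes without any difference are apart too, so being apart does not show a change. The gene lists that follow are described by such counts and by their median difference, beside the median of -0.0013 over all bright probes, and only members said to have risen passed the test. Each list is given by probes, and probes of a gene are not independent of each other. Apart from the 4 genes above, 0 list members passed.

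The Sin3 complex list had 10 bright probes of 8 genes, of which Sin3a rose. Its other 9 probes ran from -0.19 to 0.23. The highest was Sap30l, a paralog of the subunit Sap30, at 1196.6 and 1027.9 in EV and 1230.6 and 1369.2 with Sin3a (log2 0.23, adjusted p = 0.694). Hdac2, a catalytic subunit, read 1793.0 and 1805.4 against 1926.1 and 2042.4 (0.14), and the histone-binding Rbbp7 was at -0.19, -0.11 and -0.11 over 3 probes. Sap30, Suds3, Brms1 and Morf4l1 lay between -0.027 and 0.041. The NuRD list, another deacetylase complex, had 4 bright probes, all of Rbbp7 and Hdac2, with a median of -0.11. Other chromatin factors had 21 bright probes, 12 higher and 9 lower (median 0.055), with Actl6a, a remodeller subunit, at -0.29 and Ash2l, of the H3K4 methyltransferase complexes, at 0.28.

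Actin and contractile genes had 34 bright probes, 21 higher and 13 lower, with a median of 0.017. Acta2 rose. Next to the actins were a pair of structural genes chosen after their values were seen. The actin crosslinker Actn1 read 782.8 and 754.2 in EV and 945.9 and 1070.9 with Sin3a (0.39), and the lamin gene Lmna read 4426.8 and 3912.5 against 5414.7 and 5024.7 (0.33). The other 4 bright Lmna probes ran from 0.044 to 0.27. Extracellular matrix and mesenchymal genes had 19 bright probes, and 9 (47.4%) were apart and higher against 4 apart and lower, with a median of 0.10. The largest were Sparc, a collagen-binding matrix protein (769.3 and 714.2 in EV, 897.4 and 1042.5 with Sin3a, log2 0.38), and Timp2, a metalloproteinase inhibitor (0.31). Timp2 read 391.5 and 380.7 in EV and 530.0 and 430.8 with Sin3a, and was bright only through the Nanog and Nanog+Sin3a groups. The list was also summed over the brightest probe of each of its 51 genes on the array, bright or not. That summed intensity was 48895.6 and 49651.9 in EV and 49892.9 and 49022.5 with Sin3a, so the groups overlapped.

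All 5 bright probes of pluripotency factors were lower, with a median of -0.18, and 3 were apart. Pou5f1 had probes at -0.37 and -0.17. The dimmer of them read 618.3 and 626.0 in EV and 604.4 and 386.0 with Sin3a, so the lower mean came from the second Sin3a array. Fbxo15, an Oct4 target, had probes at -0.18 and -0.0042, and Gdf3, a TGF-beta family ligand, was at -0.18. Epithelial genes and keratins had 3 bright probes, Krt14, Cd9 (0.11) and Krt8 (-0.074). Neural stem cell and glial genes had 2 bright probes, of which Ckb rose and Vim was at 0.10. Neuronal genes had 4 bright probes with a median of 0.027, among them a Tubb2b probe at 0.33 beside another at -0.079, and Dpysl2 at -0.23. Endoderm and trophectoderm markers had 2 bright probes, both of Dab2, at -0.14 and -0.10, and blood and endothelial markers had 0.

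**Figure D4:**
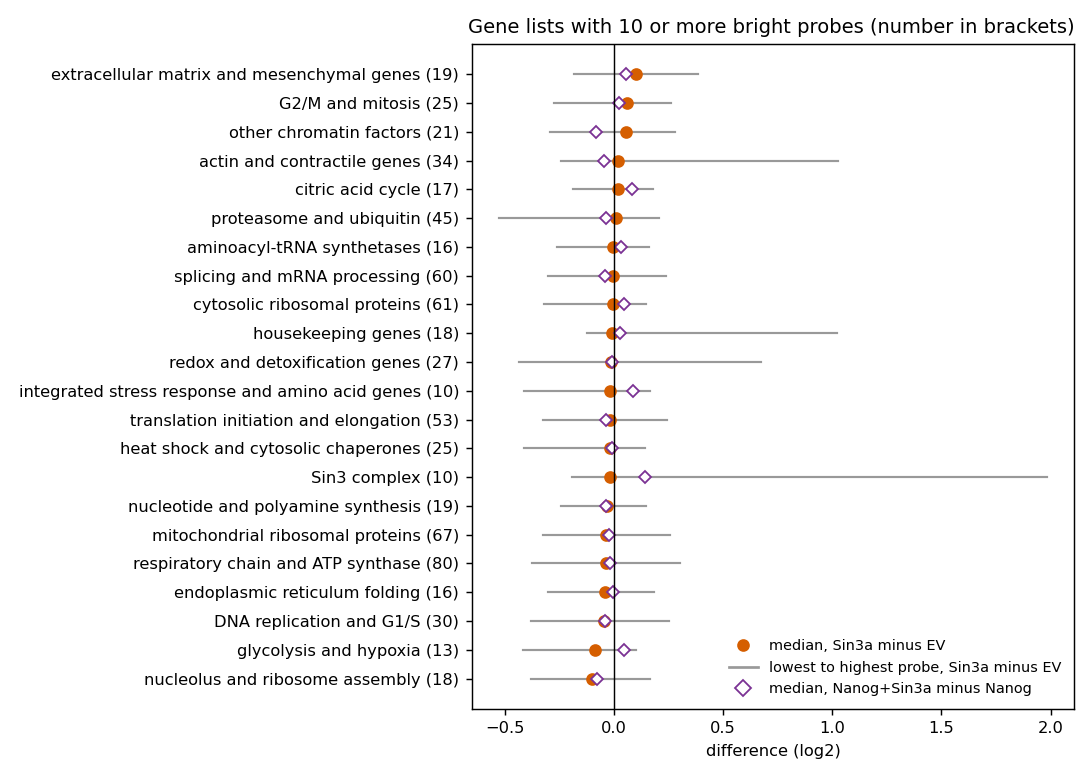
Median log2 difference of Sin3a minus EV (filled points) with the lowest and highest probe (grey lines), and of Nanog+Sin3a minus Nanog (open diamonds), for the gene lists with 10 or more bright probes (number in brackets). The vertical line is the median of all bright probes, and the list medians for Sin3a minus EV run from -0.10 (nucleolus) to 0.10 (extracellular matrix).

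Signalling and stress lists held few bright probes. Among ERK and immediate early genes (6 probes, median 0.081), Ier3 was at -0.59 with overlapping arrays (600.0 and 505.8 against 514.3 and 260.1) and Btg1 had probes at 0.41 and 0.027. In the interferon list (7 probes, median 0.015) one Ifitm1 probe was at 0.40 and the other at 0.015, and Irf1 was at -0.10. Pim3, the LIF and Stat3 gene with a bright probe, was at -0.13. For p53 targets and CDK inhibitors, Cdkn2a was at 0.26 and Gtse1 at -0.058. Insulin-like growth factor and TGF-beta genes were represented by Tgfbr2 (-0.13) and Id1 (0.10), and imprinted and X-linked dosage genes (3 probes, median -0.021) by Phlda2 (-0.16), Impact (-0.021) and Ndn (-0.014). In the integrated stress response (10 probes, median -0.016) the asparagine synthetase Asns read 1961.8 and 1712.1 in EV and 1262.6 and 1505.6 with Sin3a (-0.41, adjusted p = 0.456), and Slc38a2 was at -0.17 and -0.13.

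Glycolysis and hypoxia genes had 13 bright probes, 9 lower, and 8 of the 13 (61.5%) were apart and lower against 1 apart and higher, with a median of -0.088. The enzyme Tpi1 had probes at -0.42 and -0.23, and the first read 3692.6 and 4021.3 in EV and 2821.8 and 2949.4 with Sin3a (adjusted p = 0.184). The glucose transporter Slc2a1 read 1673.9 and 1639.6 against 1429.4 and 1397.9 (-0.23). These probes sat closely within each group. In the Nanog+Sin3a against Nanog comparison the same 13 probes had a median of 0.046, with Slc2a1 at 0.30 and the Tpi1 probes at 0.13 and -0.062. The respiratory chain and ATP synthase list had 80 bright probes, 23 (28.8%) apart and lower against 5 (6.25%) apart and higher, with a median of -0.034. Its widest values were at Ndufs4, of complex I (-0.37, with its other probes at -0.15 and -0.063), and Atp5a1, of the ATP synthase (-0.31). The citric acid cycle list (17 probes) had a median of 0.017, with Fh1 at -0.19 and Dlst at 0.18 and 0.059.

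Nucleolus and ribosome assembly genes had 18 bright probes, 14 lower, and 8 of the 18 (44.4%) were apart and lower against 2 apart and higher, with a median of -0.10. Polr1c, a subunit of RNA polymerases I and III, read 855.1 and 799.8 in EV and 672.5 and 601.9 with Sin3a (-0.38), and the assembly factor Ebna1bp2 read 1664.4 and 1675.5 against 1529.8 and 1217.0 (-0.29). Mitochondrial ribosomal proteins had 67 bright probes, 41 lower (median -0.034), led by Mrpl12 (-0.33) and Mrpl14 (-0.30). Cytosolic ribosomal proteins had 61 bright probes, 16 (26.2%) apart and lower against 8 (13.1%) apart and higher, with a median of -0.0053. The Rps3 probes were at -0.32 and -0.26, and Rpl38 had probes at -0.21 and 0.011. Translation initiation and elongation factors had 53 bright probes with a median of -0.017, with Eif2s3x at -0.32 and Eef1b2 at -0.32, -0.27 and -0.17. Aminoacyl-tRNA synthetases (16 probes) had a median of -0.0026, with Mars1 at -0.26 and Aimp1 at -0.21.

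Protein folding and turnover genes were spread on both sides. Heat shock genes had 25 bright probes, 15 lower (median -0.017). The mitochondrial chaperonin pair Hspd1 and Hspe1 stood lowest, with Hspd1 at 1294.8 and 1420.0 in EV and 1044.9 and 994.2 with Sin3a (-0.41, adjusted p = 0.319) and Hspe1 at -0.38. A second bright Hspd1 probe was at 0.049. Endoplasmic reticulum folding genes (16 probes, median -0.039) had Sec61g at -0.30 and Ssr4 at -0.20 and 0.031. The proteasome list (45 probes, median 0.011) had, after Psmb7, Psmd7 at -0.32 and 0.11. Splicing genes (60 probes, median -0.0051) had Ddx39b at -0.30 and 0.012 and Lsm3 at -0.29.

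Of the cell cycle lists, G2/M and mitosis had 25 bright probes, 18 higher, and 12 of the 25 (48.0%) were apart and higher against 6 (24.0%) apart and lower, with a median of 0.061. Bub1b, a spindle checkpoint kinase, was at -0.28 and the passenger complex subunit Cdca8 at 0.26. DNA replication and G1/S had 30 bright probes, 16 lower (median -0.047), with cyclin Ccnd3 at -0.38 and thymidine kinase Tk1 at -0.32. Nucleotide and polyamine synthesis (19 probes, median -0.031) had Srm at -0.24, 0.10 and -0.088 and Umps at -0.22. Cholesterol and fatty acid synthesis (8 probes, median -0.054) had Msmo1 at -0.14 after Fads1, and redox genes (27 probes, median -0.012) had Cbr3, which rose, and Txn1. Housekeeping genes (18 probes) had a median of -0.0099, and outside Actb the widest was Ywhaz at -0.12.

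The same transgene was also compared on a Nanog background, Nanog+Sin3a against Nanog, which shares no array with Sin3a against EV. There 6 bright probes rose and 1 fell (0.262% of probes called). The count was 62 (32 higher, 30 lower) without the first Nanog array and 2 without the second Nanog+Sin3a array. Across the 2669 bright probes other than that of Sin3a, the differences of the comparisons correlated at r = 0.19, a description over probes that share arrays and are not independent replicates. The Nanog+Sin3a and Nanog arrays did not overlap at 37.3% of the 2670 bright probes, and those of Sin3a and EV at 41.2%. In both comparisons 245 probes were apart in the same direction and 157 in opposite directions. Whether these counts exceed those of unrelated comparisons was not tested.

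Krt14, Cbr3, Sgk1, Pqlc3, H2ac13 and Sin3a itself rose on the Nanog background, and the probe that fell has no symbol. Krt14 read 591.5 and 686.3 in Nanog and 1500.1 and 1650.1 in Nanog+Sin3a (log2 1.30, SE 0.13, limma adjusted p = 2.03e-06). Cbr3 read 661.1 and 727.7 against 1330.2 and 1456.8 (1.01, adjusted p = 0.000309). It was bright through the Nanog and Nanog+Sin3a groups, so this p-value is not independent of how the probes were chosen. Sgk1 read 869.8 and 897.4 against 1423.1 and 1494.7 (0.72, adjusted p = 0.00156). For Pqlc3, a gene of the PQ-loop repeat family, the values were 511.1 and 474.3 against 876.2 and 864.5 (0.82, adjusted p = 0.00236), while on the EV background it was at 0.25. The replication-dependent histone gene H2ac13 rose by 0.48 (adjusted p = 0.0136), against 0.012 on the EV background, and its other bright probe was at 0.058 on the Nanog background. Without the second Nanog+Sin3a array Cbr3 and Sgk1 (adjusted p = 0.0816 each), Pqlc3 (0.0979) and H2ac13 (0.111) did not pass. Nor did Pqlc3 (0.0783) and H2ac13 (0.151) without the first, or H2ac13 without the second Nanog array (0.0946). Over its alternatives H2ac13 lost the call in 8 of 20 and Pqlc3 in 4 of 20. Histone genes such as H2ac13 and H3c13 have near-identical copies, so their probes may read several. The tests of the difference between backgrounds were not passed for Krt14 (0.69, adjusted p = 0.400), Cbr3 (0.33, 0.836), Sgk1 (0.21, 0.866), Pqlc3 (0.57, 0.663) or H2ac13 (0.46, 0.400), which does not show that the backgrounds acted alike.

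Acta2 went the other way. It read 710.7 and 718.0 in Nanog and 566.2 and 443.3 in Nanog+Sin3a, a difference of -0.51 (95% interval -0.82 to -0.21, limma adjusted p = 0.159). The difference between the backgrounds was -1.54 (SE 0.21, limma adjusted p = 0.000811), the 1 called of 2670 probes (0.0375%). Acta2 was bright through the Sin3a and Nanog groups, which is the pattern this test reads, and over all probes above the floor its adjusted p was 0.765. Over the bright probes, without the second EV array, its adjusted p was 0.0503 and 0 probes passed (limma, against 170 or 6.37% at an unadjusted p under 0.05 over all arrays). Without the first Nanog array 21 passed, and 2 without the second Nanog array or the first EV array. For Ckb, at 1987.5 and 2116.4 in Nanog and 1712.1 and 1892.5 in Nanog+Sin3a (-0.19), the difference between backgrounds was -0.81 (adjusted p = 0.0912). Axl was at -0.0086 on the Nanog background, where it read 664.7 and 562.8 against 609.8 and 606.2, and the difference from the EV background did not pass (-0.54, adjusted p = 0.663).

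**Figure D5:**
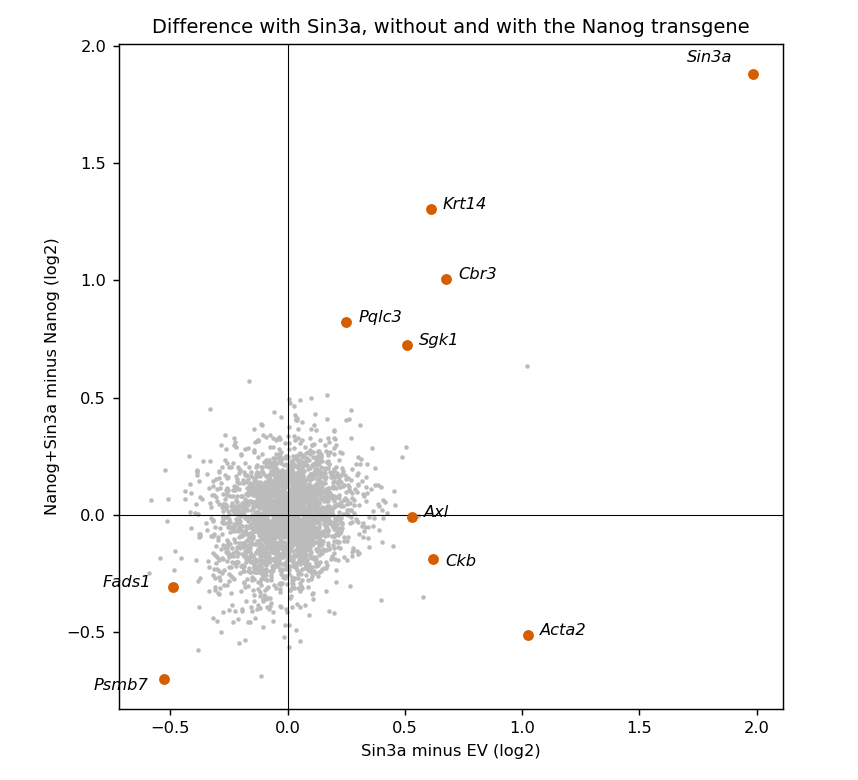
Log2 difference of Sin3a minus EV (horizontal axis) and of Nanog+Sin3a minus Nanog (vertical axis) for the 2670 bright probes (grey) with named genes (coloured). Sin3a is high on both axes, Krt14, Cbr3 and Sgk1 lie above 0.5 on both, and Acta2 is at 1.02 and -0.51.

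Averaged over both backgrounds, 4 arrays with the Sin3a transgene against 4 without, 5 bright probes rose and 4 fell (0.337% called). Leaving out the first Nanog array gave 37 calls and leaving out the second gave 26. It was 6 and 4 for the first and second array with both transgenes, 4 for the second EV array and 6 for the second Sin3a array. The risen ones were Sin3a, Krt14 (0.96), Cbr3 (0.84), Sgk1 (0.62, limma adjusted p = 9.71e-05) and Pqlc3 (0.54, adjusted p = 0.00687). Sin3a and Cbr3 passed the limit of brightness through groups where they are high, so their calls are not independent of that choice. Those that fell were the Psmb7 probe described above (-0.61, adjusted p = 0.0103), Fads1 (-0.40, 0.0275), Dazap2, named for its association with DAZ proteins (-0.38, 0.0389), and a probe with no symbol. The other bright Psmb7 probes ran from 0.03 to 0.06 against EV and from -0.011 to 0.052 on the Nanog background. These lower calls were not stable. No probe was called lower without the second EV array or the second Nanog+Sin3a array, or at a limit of 8 or 10, and Dazap2 lost the call in 12 of 21 alternatives, Fads1 in 10 of 21 and Psmb7 in 6 of 19. For Dazap2 the arrays read 1228.0 and 1375.9 in EV, 1099.6 and 1012.2 with Sin3a, 1226.8 and 1185.0 with Nanog, and 868.4 and 891.4 with both.

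The calls above were adjusted over the bright probes alone. When all 19673 probes above the floor on at least 2 arrays were tested together, 0 passed for Sin3a against EV (571 at an unadjusted p under 0.05), and the adjusted p was 0.127 for Sin3a itself and 0.540 for Acta2, Ckb and Cbr3. Without the second Sin3a array, 0 of 18558 passed in limma (658 unadjusted).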

How the data were processed

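The 8 arrays (4 groups of 2) measured total RNA converted to biotinylated cRNA on Illumina bead arrays. As deposited, each value is a probe's intensity on a linear scale, made with GenomeStudio per the submitters' processing notes, whose version and settings are not given in the sources used here. On the values themselves, 47.3% to 47.7% were below 0, so a background had been subtracted, and 35.7% to 36.1% were above the floor. Once sorted, 7 arrays held nearly the same values (0.621% apart at most, as after quantile normalization), and the second Sin3a array was 4.05% apart.

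Intensities under 16 were set to 16 and all were taken to log2, with no further normalization. Probes with a mean above 9 were fitted in R 4.3.3 with limma 3.58.1 (lmFit and eBayes with an intensity trend, 1 coefficient per group over all 8 arrays, 4 residual degrees of freedom). Tests were two-sided, with Benjamini-Hochberg adjustment over the 2670 probes at 0.05. The fit was tested on simulated data with a probe's spread the same on every array, so without a noisy array. In them 100 probes were changed by 0.5 and 100 by 1 (log2). It called 85% of changes of 0.5 and 100% of changes of 1, and 6.57% of its calls were false. With that many changed probes the adjusted threshold is easier to pass than in Sin3a against EV, where 4 probes passed. The share recovered therefore does not carry over to that comparison. Symbols came from the platform annotation and were looked up in RefSeq through gene identifiers for 2251 probes, which changed 0 symbols.

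The bright probes, the 37 gene lists and the tests were chosen with earlier results of these data known. Named genes are Sin3a, those that passed, the largest differences without overlap to make up 10 a direction, and up to 4 list members that passed, or up to 2 with the largest differences where none did. Alternatives were other floors and limits of brightness, other normalizations and fits, all probes above the floor, 1 probe per gene, and leaving out each array. The number of arrays limits the precision.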

Additional observations from a re-analysis of the deposited data

Results flagged for a closer look

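The difference with the Sin3a transgene differed between backgrounds at Acta2. It was 1.02 (log2) against EV and -0.51 on the Nanog background, and the interaction was -1.54 (SE 0.21, limma adjusted p = 0.000811 over the bright probes and 0.765 over all probes above the floor). Acta2 passed the limit of brightness through the Sin3a and Nanog groups, where it is high, so the smaller p is not independent of how the probes were chosen. The intensities were 473.5 and 408.2 in EV, 850.8 and 940.3 with Sin3a, 710.7 and 718.0 with Nanog, and 566.2 and 443.3 with both, so both differences had arrays that did not overlap. Without the second EV array the interaction was -1.43 (adjusted p = 0.0503). The dimmer Acta2 probes that were above the floor, outside the bright set, differed by -0.67, -0.81 and -0.24 (log2) between the group with both transgenes and the Nanog group. No explanation was tested.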

How the results depend on the processing

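For Sin3a against EV, 4 calls became 0 at a limit of 10 for the mean log2 intensity (83 at an unadjusted p under 0.05 by limma) and over all probes, with 8 arrays or without the second Sin3a array, 12 with array weights, 35 on the Sin3a and EV arrays alone, and 1 to 14 with 1 array left out. Floors of 8 and 32, a limit of 8, median centring, quantile normalization, 1 probe per gene, no intensity trend and robust estimation gave 3 to 6. Nanog+Sin3a against Nanog, 7, became 1 at a limit of 10, 0 over all probes (3 without the second Sin3a array), 18 with robust estimation, and 2 to 62 with 1 array left out. The interaction, 1, became 2 at a limit of 8 or with quantile normalization, 0 at 10 and over all probes with 8 or 7 arrays, 4 with robust estimation or array weights, and 0 to 21 with 1 array left out. The average over backgrounds, 9, became 5 at a limit of 8, 1 at 10, 1 over all probes (0 without the second Sin3a array), and 4 to 37 with 1 array left out. None of the 35 single-gene results followed reversed (20 against EV, 6 on the Nanog background, 1 interaction, 8 averages), and the other list members were not followed. The cause of these changes was not tested. A different limit changed both the number of probes tested and which probes they were.

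Of single genes, Sin3a lost its call against EV only over all probes, Acta2 also without the second EV array, Cbr3 in 11 of 21 and Ckb in 11 of 22 alternatives. Deviations of arrays with the same replicate number correlated at -0.19 to 0.063 between groups, so the numbers were not taken as pairs. With the number as a replicate block, Sin3a against EV had 2 calls (Ckb and Cbr3 at adjusted p = 0.0555). The alternative over all probes without the second Sin3a array was chosen after seeing the data. A lone array left in a group is taken to be as variable as those of other groups. Dim probes of the Sin3a group rest on 1 usable array, and were given only as markers and as further probes of called genes.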

Other observations

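Probes that the annotation does not list are given by their identifier. ILMN_1225712 read 620.8 and 661.8 in EV and 1013.5 and 900.3 with Sin3a (log2 0.58, limma adjusted p = 0.0701), and 764.2 and 791.3 with Nanog against 583.0 and 639.5 with both, an interaction of -0.92 (adjusted p = 0.0547). ILMN_2531581 fell on the Nanog background, from 593.2 and 596.2 to 340.6 and 401.6 (-0.69), and read 626.3 and 613.5 in EV and 570.1 and 576.4 with Sin3a. ILMN_1249220 fell by 0.48 on average over both backgrounds, and read 587.5 and 532.3 in EV, 413.9 and 445.8 with Sin3a, 891.1 and 790.7 with Nanog, and 564.4 and 562.0 with both.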
